A study of Mus musculus with 10 samples.

Results

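The clustered histone genes encode the core and linker histones of newly made chromatin. Here they are the genes whose symbol begins with Hist1h, Hist2h, Hist3h or Hist4h and that have at least 1 probe set annotated to that symbol alone. The array lists 69 such symbols, and 30 of them, out of 23152 genes measured, met the rule. They comprise 6 linker histone H1 genes, 8 H2A genes, 8 H2B genes and 8 H4 genes, on 65 probe sets. RefSeq lists Hist1h2al, counted among the H2A genes by its symbol, as a transcribed pseudogene. None of the 12 H3 symbols had a probe set of its own. The value of a gene was the mean of its probe sets on a scale read as log2 signal.

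RNA came from lineage-negative progenitors sorted out of the bone marrow of adult C57BL/6 mice. Lymphoid-primed multipotent progenitors (LMPPs), with high cKit, Sca-1 and Flt3, were divided into CD127- (n = 3 arrays) and CD127+ cells (n = 3). Common lymphoid progenitors (CLPs), with high Flt3, CD127 on their surface, and less cKit and Sca-1, were divided into Ly6D- (n = 2) and Ly6D+ cells (n = 2). The study split LMPPs by CD127, the interleukin 7 receptor α chain, and compared them with CLPs. The labels do not say whether arrays of a group came from separate animals or sorts, so p-values measure the spread between these arrays, which may be technical. The labels also do not say whether LMPP and CLP arrays were hybridised together. If they were not, processing and cell type cannot be told apart in comparisons of LMPPs with CLPs. Nor do the labels say how the RNA was primed for amplification, which bears on messages without a poly(A) tail.

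Core histones H2A, H2B, H3 and H4 form the nucleosome, and H1 binds the linker DNA between nucleosomes. The clustered genes are made mainly in S phase, when new DNA has to be packaged, and their messenger RNAs end in a stem-loop in place of a poly(A) tail. Replacement histones, such as H2A.Z and H3.3, are encoded elsewhere, are made outside S phase too and mostly have polyadenylated messages. Early lymphoid progenitors divide as they pass from multipotent to lineage-restricted stages.

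The arrays were alike in scale, with quartiles that differed by at most 0.125 log2. Arrays of the same group correlated across genes at Pearson r of 0.972 to 0.986. The 95th percentile of 1438 odorant, vomeronasal and taste receptor genes, 4.42 log2, served as a low-signal limit. Over the 10 arrays, 21 of the 30 histone genes had a mean above it, while 47.0% of all genes had a mean below it. Where the dimmer side of a comparison lay under the limit, the limit stood in for it and the fold is a lower bound, written as at least so many fold. Of 5 sort marker genes, Il7r followed the labels between the LMPP groups, Ly6d between the CLP groups, and Kit between LMPPs and CLPs. Il7r averaged 4.32 ± 0.44 (SD, n = 3) in CD127- LMPPs and 9.10 ± 0.05 (n = 3) in CD127+ LMPPs. Kit fell by 1.18 log2 from LMPPs to CLPs, and was the only 1 of the 5 below 0 in CLPs against CD127- LMPPs. Transcript of Ly6a, the Sca-1 gene, was thus not lower in CLPs in that comparison. Against CD127+ LMPPs 4 of the 5 were below 0 in CLPs, Ly6a and Ly6d among them, and Il7r lay above 0 (0.38). Ly6d averaged 5.88 ± 0.41 (n = 2) in Ly6D- and 11.33 ± 0.04 (n = 2) in Ly6D+ CLPs.

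A part of the clustered histone genes, most of them H1, H2A and H4 genes, had less transcript in CLPs than in LMPPs. Of 30 genes, limma called 9 lower and 0 higher in CLPs at an adjusted p under 0.05, where 8.72% of all genes were lower and 5.39% higher. Without adjustment, 11 lower and 2 higher genes had a p under 0.05, against 15.4% and 12.2% of all genes. The 9 were Hist1h1b, Hist1h1d and Hist1h1e (3 of 6 H1 genes), Hist2h2ab and Hist2h2ac (2 of 8 H2A genes), Hist1h2bh (1 of 8 H2B genes), and Hist1h4h, Hist1h4m and Hist4h4 (3 of 8 H4 genes). The median log2 difference was −0.23 over the 30 genes and 0.01 over all genes, with −0.57 for H1, −0.04 for H2A, −0.07 for H2B and −0.36 for H4. Among genes above the low-signal limit, 8 of 21 histone genes were lower and 0 higher, where 15.5% of all such genes were lower and 7.99% higher. Their median was −0.32, against −0.07 over all genes above the limit. In these bulk samples, fewer cells of a type and less RNA per cell cannot be told apart.

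With both LMPP groups on one side and both CLP groups on the other, the arrays of 9 histone genes did not overlap and were lower in CLPs, against 6.96% of all genes. A test for any difference among the 4 groups (limma's moderated F) called 8 of the 30 genes, against 9.38% of all genes. The smallest F test adjusted p was that of Hist1h4m (0.00139), followed by Hist1h1b (0.00198) and Hist1h4h (0.00229).

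**Figure D1:**
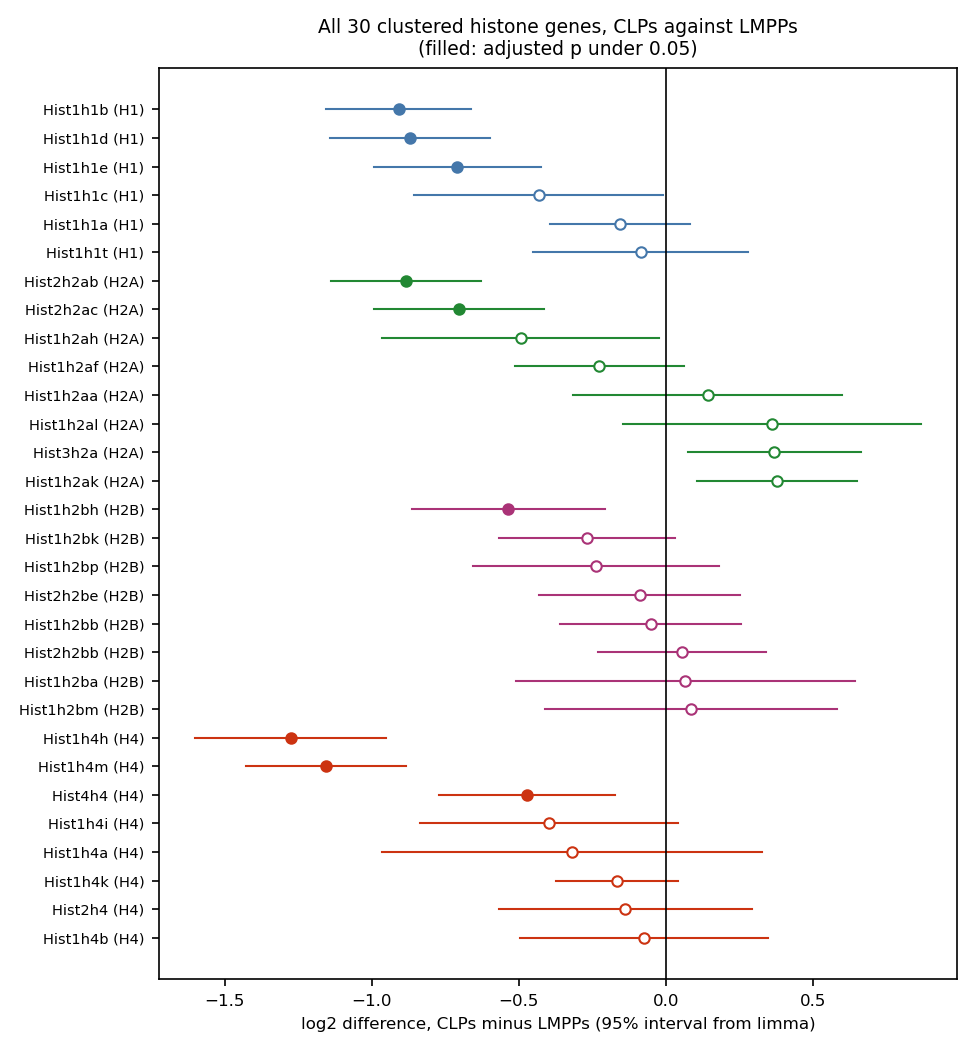
Log2 difference of each of the 30 histone genes, the mean of the CLP groups minus the mean of the LMPP groups, with its 95% interval from limma, coloured by histone class; filled points have an adjusted p under 0.05. All 9 filled points lie left of 0, from −1.28 for Hist1h4h to −0.47 for Hist4h4, and the points farthest right are Hist1h2ak (0.38) and Hist3h2a (0.37), which are open.

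Members of a class differed in their calls, and the promoter sequences of 3 such pairs are shown for that reason. RefSeq promoter windows of GRCm38.p6, from 250 bases before to 50 after the annotated start, were held for 27 of the 30 genes. The 150 bases before the start follow, 5′ to 3′ on the gene's strand, first for an H1 pair, then an H2A pair, then an H4 pair. Hist1h1b, Hist2h2ab and Hist1h4m fell in CLPs, and Hist1h1a, Hist1h2ak and Hist1h4k did not pass in that direction. Capitals mark the TATA box motif TATAAA, the CCAAT box motif, which reads ATTGG on the other strand, the H1 box motif AAACACA and the H4 promoter motif GGTCCG.
Hist1h1b (chr13:21780626-21780775, minus strand): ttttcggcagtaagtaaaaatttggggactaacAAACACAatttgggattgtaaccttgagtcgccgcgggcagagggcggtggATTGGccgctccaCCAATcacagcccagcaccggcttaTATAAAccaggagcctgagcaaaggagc
Hist1h1a (chr13:23763518-23763667, plus strand): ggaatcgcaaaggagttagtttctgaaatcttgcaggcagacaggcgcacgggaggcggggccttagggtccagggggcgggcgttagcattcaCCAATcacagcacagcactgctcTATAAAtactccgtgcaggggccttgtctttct
Hist2h2ab (chr3:96219735-96219884, plus strand): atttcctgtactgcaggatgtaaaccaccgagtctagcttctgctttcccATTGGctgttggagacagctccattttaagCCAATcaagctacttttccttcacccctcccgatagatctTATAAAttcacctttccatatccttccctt
Hist1h2ak (chr13:21753913-21754062, minus strand): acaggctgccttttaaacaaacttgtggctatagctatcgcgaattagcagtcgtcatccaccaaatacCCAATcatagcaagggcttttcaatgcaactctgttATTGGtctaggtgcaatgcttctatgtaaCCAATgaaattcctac
Hist1h4m (chr13:21811596-21811745, plus strand): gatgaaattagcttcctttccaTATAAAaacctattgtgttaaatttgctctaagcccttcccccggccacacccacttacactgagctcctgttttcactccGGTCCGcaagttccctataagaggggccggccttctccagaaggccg
Hist1h4k (chr13:21750554-21750703, minus strand): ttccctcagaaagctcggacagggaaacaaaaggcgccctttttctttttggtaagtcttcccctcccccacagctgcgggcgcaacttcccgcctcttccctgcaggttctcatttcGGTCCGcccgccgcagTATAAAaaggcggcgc

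Motif matches, counted on either strand, differed by histone class. CCAAT was in all 6 H1, 7 of 7 H2A and 7 of 7 H2B windows but in 1 of 7 H4 windows, and in 37.4% of all 32851 RefSeq windows. AAACACA was in 5 of 6 H1 windows, Hist1h1a being the one without it. Hist1h1c and Hist1h1t have it and did not pass either. The motif was in 1 of 7 H2A and 2 of 7 H2B windows, in 0 of 7 H4 windows, and in 7.18% of all windows. GGTCCG was in 6 of 7 H4 windows, in 1 of 7 H2B windows and in 8.25% of all windows. The octamer ATTTGCAT was in 4 of 7 H2A and 5 of 7 H2B windows and in 1.74% of all windows. TATAAA was in 6 of the 9 windows of genes that fell and in 11 of the 18 others, against 13.6% of all windows. The same split was 6 of 9 and 15 of 18 for CCAAT, and 3 of 9 and 5 of 18 for AAACACA. For GGTCCG it was 4 of 9 and 3 of 18, and for ATTTGCAT 1 of 9 and 8 of 18. These splits mix the histone classes. A match describes letters only, at any place in the window, so a TATAAA match need not be a TATA box. The one counted for Hist1h2ak lies outside the bases printed. CCAAT lies within longer motifs that were not searched.

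Among the linker histones, Hist1h1b (H1.5) read 10.48, 10.71 and 10.45 log2 in CD127- LMPPs, 10.08, 10.09 and 9.90 in CD127+ LMPPs, 9.10 and 9.43 in Ly6D- CLPs, and 9.49 and 9.48 in Ly6D+ CLPs. The 4 CLP arrays all lay below the 6 LMPP arrays, and the CD127+ LMPP arrays lay between the other groups. From LMPPs to CLPs it fell by 0.91 log2 (SE 0.11, 1.88-fold, limma adjusted p = 0.000545).

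Hist1h1d (H1.3) read 4.75, 5.17 and 4.91 in CD127- LMPPs, 4.44, 4.71 and 4.41 in CD127+ LMPPs, 3.67 and 3.98 in Ly6D- CLPs, and 3.92 and 3.87 in Ly6D+ CLPs. All CLP arrays lay below all LMPP arrays and under the low-signal limit, so its fall of 0.87 log2 (SE 0.12, limma adjusted p = 0.00118) is given as at least 1.24-fold. Hist1h1e (H1.4) read 6.71, 6.67 and 6.27, then 5.98, 6.19 and 5.81, then 5.60 and 5.74, and lastly 5.35 and 5.57 in the same order of groups. Its groups did not overlap between LMPPs and CLPs, and it fell by 0.71 log2 (SE 0.13, 1.64-fold, limma adjusted p = 0.00457). With the median of its 4 probe sets in place of the mean, Hist1h1e missed the threshold (adjusted p = 0.0588).

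The remaining H1 genes did not pass. Hist1h1c (H1.2) averaged 8.72 ± 0.25 (SD, n = 3), 8.31 ± 0.46 (n = 3), 8.09 ± 0.37 (n = 2) and 8.08 ± 0.25 (n = 2) in the 4 groups, and CD127+ LMPP array 3, at 7.78, lay below all 4 CLP arrays. Its difference of −0.43 had a limma adjusted p of 0.172. Against CD127- LMPPs the difference of Hist1h1c was −0.64 (limma adjusted p = 0.0935). That array is not in this comparison and enters only through the spread that all groups share. Without it the same difference of −0.64 passed (adjusted p = 0.0468). Hist1h1a (H1.1) averaged 8.56 ± 0.13, 8.40 ± 0.14, 8.14 ± 0.01 and 8.50 ± 0.16, and its difference of −0.16 did not pass (adjusted p = 0.389). Its 3 probe sets disagreed, with differences from −1.10 to 0.49, and 1 of them was below 0. Hist1h1t, a testis linker histone, averaged 2.95 to 3.60 in the groups, under the low-signal limit.

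**Figure D2:**
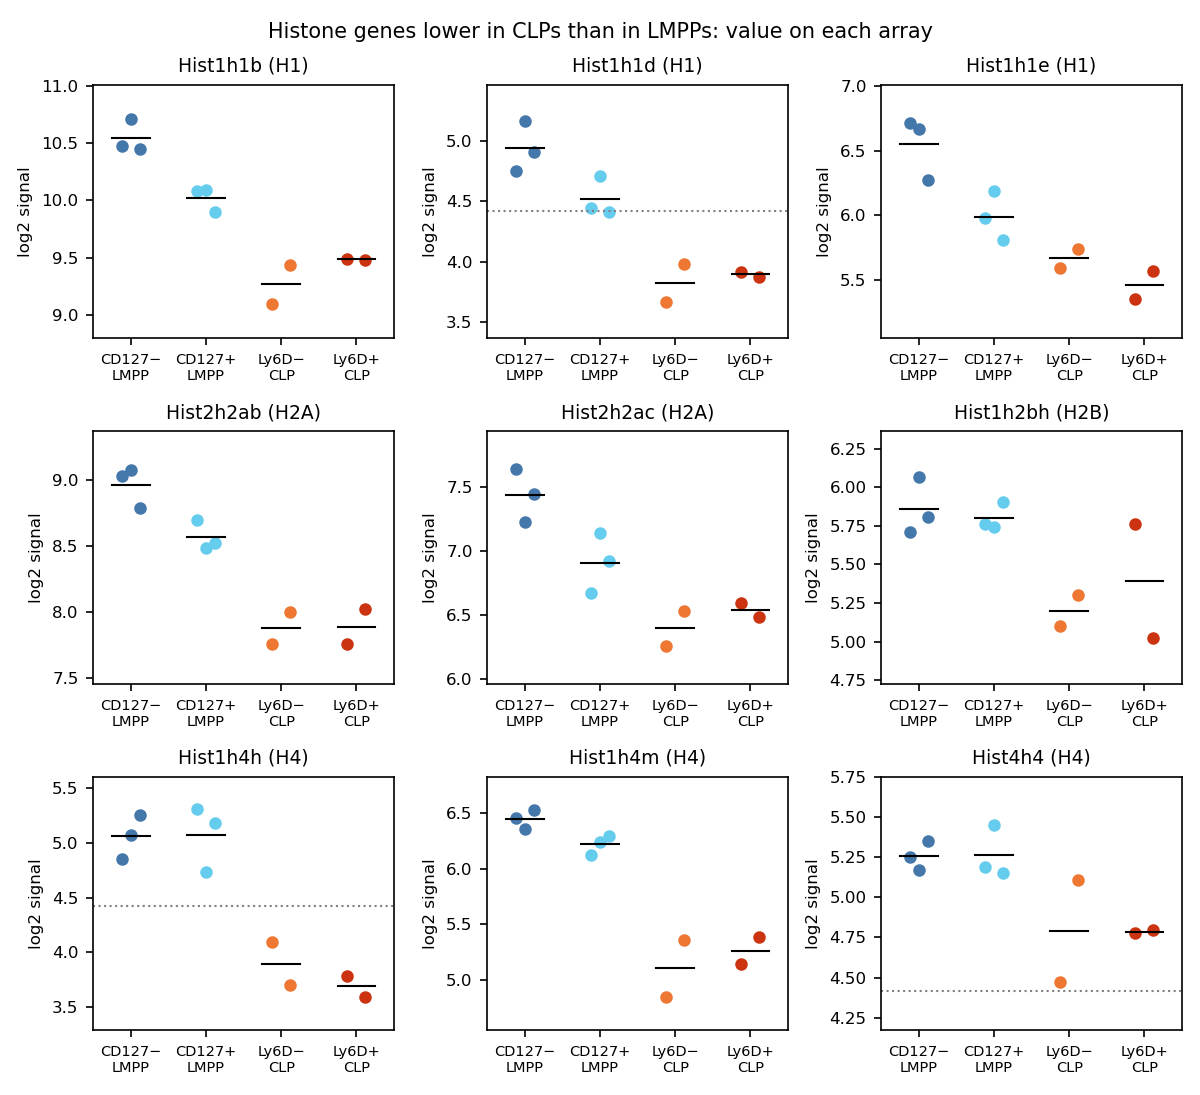
Log2 signal on each array for the 9 histone genes that were lower in CLPs than in LMPPs; points are arrays, bars are group means, and the dotted line, where in range, is the low-signal limit of 4.42. For 8 of the 9 genes every CLP point lies below every LMPP point, and for Hist1h2bh a Ly6D+ CLP array reaches 5.76.

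Of the H2A genes, the members that fell were neighbours in the Hist2 cluster on chromosome 3. Hist2h2ab read 9.04, 9.08 and 8.79 in CD127- LMPPs, 8.70, 8.49 and 8.53 in CD127+ LMPPs, 7.76 and 8.004 in Ly6D- CLPs, and 7.76 and 8.02 in Ly6D+ CLPs. Every CLP array lay below every LMPP array, and the CLP groups were alike. The fall was 0.88 log2 (SE 0.12, 1.85-fold, limma adjusted p = 0.000729), with both of its probe sets lower (−0.98 and −0.79).

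Hist2h2ac read 7.64, 7.23 and 7.45 in CD127- LMPPs, 6.67, 7.14 and 6.92 in CD127+ LMPPs, 6.26 and 6.54 in Ly6D- CLPs, and 6.60 and 6.49 in Ly6D+ CLPs. The CLP arrays lay below the LMPP arrays by a small margin at CD127+ LMPP array 1. It fell by 0.70 log2 (SE 0.13, 1.63-fold, limma adjusted p = 0.00524). Its 3 probe sets differed in size of change, from −1.42 to −0.31, and the brightest alone did not pass (adjusted p = 0.253).

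Of the 8 H2A genes, 4 lay above 0 in CLPs without passing. They were Hist1h2ak, Hist3h2a, and, with lower signal, the pseudogene Hist1h2al (0.36, adjusted p = 0.35) and Hist1h2aa (0.14, adjusted p = 0.718). Hist1h2ak read 9.07, 9.07 and 9.55 in CD127- LMPPs, 8.87, 8.97 and 9.10 in CD127+ LMPPs, 9.17 and 9.05 in Ly6D- CLPs, and 9.83 and 9.87 in Ly6D+ CLPs. The Ly6D+ arrays lay above the 8 other arrays, while the Ly6D- arrays overlapped both LMPP groups. Its difference between CLPs and LMPPs was 0.38 (adjusted p = 0.0669), and the F test over the 4 groups passed (adjusted p = 0.0366). Hist3h2a, outside the large clusters, averaged 7.83 ± 0.24 (SD, n = 3), 8.07 ± 0.19 (n = 3), 8.17 ± 0.24 (n = 2) and 8.45 ± 0.11 (n = 2), and its difference of 0.37 had an adjusted p of 0.096. Without CD127- LMPP array 3, Hist1h2ak passed as higher in CLPs (adjusted p = 0.0218). Hist1h2af did not pass (−0.23, adjusted p = 0.297).

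Of the 8 H2B genes, 1 passed. Hist1h2bh, on 1 probe set, read 5.71, 6.07 and 5.81 in CD127- LMPPs, 5.76, 5.74 and 5.90 in CD127+ LMPPs, 5.10 and 5.30 in Ly6D- CLPs, and 5.76 and 5.02 in Ly6D+ CLPs. Ly6D+ CLP array 1 lay among the LMPP arrays and the other 3 CLP arrays below them. The fall of 0.54 log2 (SE 0.15, 1.45-fold, limma adjusted p = 0.0357) lost its call when any 1 array other than CD127- LMPP array 1 or Ly6D+ CLP array 1 was left out, with adjusted p up to 0.137. Hist1h2bb (−0.05, adjusted p = 0.856), Hist1h2bk (−0.27, adjusted p = 0.234) and Hist2h2bb (0.05, adjusted p = 0.842) did not pass. Hist1h2ba, a testis H2B gene, and Hist1h2aa, its H2A counterpart, read at most 2.52 and 4.74, and none of the 3 testis histones passed in any comparison.

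Histone H4 is encoded by many genes for the same protein, and their transcripts differed in response. Hist1h4m read 6.46, 6.36 and 6.53 in CD127- LMPPs, 6.12, 6.24 and 6.30 in CD127+ LMPPs, 4.84 and 5.36 in Ly6D- CLPs, and 5.14 and 5.38 in Ly6D+ CLPs. The LMPP and CLP arrays were well apart. It fell by 1.16 log2 (SE 0.12, 2.23-fold, limma adjusted p = 0.00025), and its 4 probe sets ranged from −2.41 to −0.18. With the brightest of them alone it did not pass (adjusted p = 0.0662).

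Hist1h4h read 4.85, 5.07 and 5.26 in CD127- LMPPs, 5.31, 4.73 and 5.18 in CD127+ LMPPs, 4.09 and 3.70 in Ly6D- CLPs, and 3.79 and 3.59 in Ly6D+ CLPs. The CD127- and CD127+ LMPP arrays overlapped, and all CLP arrays lay below them and under the low-signal limit. The fall of 1.28 log2 (SE 0.15, at least 1.57-fold, limma adjusted p = 0.000381) came from 1 of its 2 probe sets. That probe set averaged 5.96 ± 0.41 (SD, n = 3), 5.99 ± 0.62 (n = 3), 3.67 ± 0.62 (n = 2) and 3.25 ± 0.23 (n = 2), a difference of −2.52, while the other, with all group means under the limit, differed by −0.03.

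Hist4h4 averaged 5.26 ± 0.09 (SD, n = 3), 5.27 ± 0.16 (n = 3), 4.79 ± 0.45 (n = 2) and 4.79 ± 0.02 (n = 2), and its arrays did not overlap between LMPPs and CLPs. Its fall of 0.47 log2 (SE 0.14, 1.39-fold, limma adjusted p = 0.0403) lost its call when any 1 array other than Ly6D- CLP array 2 was left out, with adjusted p up to 0.128. It also lost it with quantile normalization or median centring. By contrast Hist1h4k read 10.22 to 10.38 on the 6 LMPP arrays and 10.08 to 10.17 on the 4 CLP arrays. These did not overlap either, but the difference of −0.17 did not pass (adjusted p = 0.287), and its 95% interval ran from −0.37 to 0.04. Hist1h4i, at −0.40 (adjusted p = 0.228), did not pass.

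No H3 gene could be measured alone, because the 21 probe sets for H3 each carried several H3 symbols. They were therefore tested singly, in a limma fit over all 269751 probe sets, and name a group of genes rather than 1 gene. In CLPs 4 of the 21 were lower than in LMPPs and 0 higher, where 1.25% of all probe sets were lower and 1.04% higher. Their median difference was −0.57, and 18 of 21 were below 0. A probe set shared by 8 H3 symbols read 11.34, 11.54 and 11.36 in CD127- LMPPs, 11.12, 11.12 and 10.73 in CD127+ LMPPs, 9.87 and 10.15 in Ly6D- CLPs, and 9.98 and 10.09 in Ly6D+ CLPs. All CLP arrays lay below all LMPP arrays, and the fall was 1.18 log2 (SE 0.19, limma adjusted p = 0.025 over all probe sets). Another set of 8 symbols fell by 1.07 (adjusted p = 0.0305), and a set of 4 symbols fell by 1.42 (adjusted p = 0.0276). The last of the 4, another set of 4 symbols, passed as lower (adjusted p = 0.0235), but all its group means lay under the low-signal limit, so no size is given.

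Among the 11 H3 probe sets above the low-signal limit, the median deviation from the CD127- LMPP mean lay near 0 on the CD127- LMPP arrays, at −0.05, 0.03 and −0.02. It was −0.41, −0.26 and −0.54 on the CD127+ LMPP arrays, −0.97 and −0.94 on the Ly6D- CLP arrays, and −1.003 and −0.72 on the Ly6D+ CLP arrays. The CD127+ LMPP arrays thus stood between the CD127- LMPP and CLP arrays. Against CD127- LMPPs, 4 of the 21 H3 probe sets were lower in CLPs and 0 higher, where 0.788% of all probe sets were lower and 0.801% higher. Against CD127+ LMPPs 0 passed, but few of any kind did, 0.0145% of all probe sets being lower and 0.00259% higher. Between the LMPP groups 0 passed (0.00519% lower and 0.0337% higher over all probe sets), and between the CLP groups 0 passed (0% lower and 0.00259% higher).

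**Figure D3:**
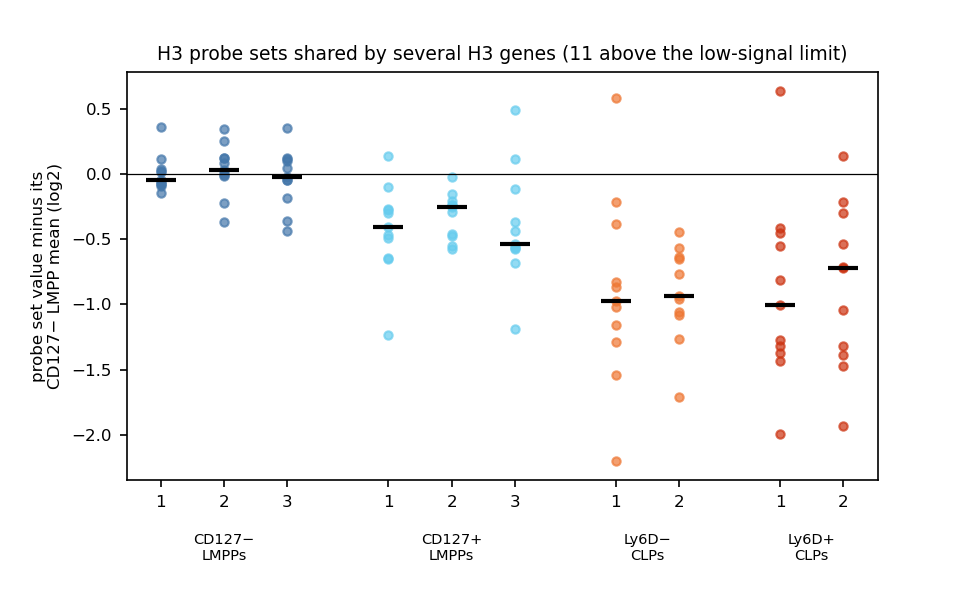
Each of the 11 H3 probe sets above the low-signal limit on each array, as its log2 value minus its own mean in CD127- LMPPs; points are probe sets and bars the median of an array. The median lies between −0.05 and 0.03 on the CD127- LMPP arrays and between −0.72 and −1.003 on the 4 CLP arrays.

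Most shared probe sets of the other classes lay below 0 in CLPs against LMPPs. These were 19 of 21 for H2A (median −0.64), 16 of 18 for H2B and 6 of 7 for H4. Of the 7 shared H4 sets, 2 had a mean above the low-signal limit. Of 69 shared probe sets in all, 7 were lower and 1 higher in CLPs than in LMPPs, the H3 sets included. Over all probe sets 1.25% were lower and 1.04% higher. Some pairs of shared H2A and H2B sets held identical values on all 10 arrays, so not all 69 are separate measurements. A set of 10 H2A symbols averaged 7.95 ± 0.07 (SD, n = 3), 7.54 ± 0.24 (n = 3), 5.99 ± 0.05 (n = 2) and 6.96 ± 0.31 (n = 2), a fall of 1.27 log2 in CLPs (limma adjusted p = 0.0228). Another set of 10 H2A symbols averaged 9.92 ± 0.26, 9.70 ± 0.10, 10.66 ± 0.08 and 10.92 ± 0.00. It rose by 0.98 (limma adjusted p = 0.0368) and was the only shared set called higher. A set of 4 H2B symbols, whose Ly6D+ CLP mean lay under the low-signal limit, fell by 1.25 (adjusted p = 0.0247), and a set of 13 H4 symbols by 1.85 (adjusted p = 0.0369). Core histone genes within a class are near-identical in coding sequence, and probe sequences were not analysed here, so which gene copies a probe set reads is uncertain, also for core histone sets with 1 symbol.

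Between the LMPP groups no histone gene passed: limma called 0 of 30 in either direction, where 0.592% of all genes were lower in CD127+ LMPPs and 0.881% higher, and the unadjusted p was under 0.05 for 7 lower and 0 higher genes, against 5.28% and 5.83% of all genes. The median difference was −0.19, against −0.005 over all genes, and 21 of 30 genes were below 0. By class it was −0.42 for H1, −0.19 for H2A, −0.19 for H2B and −0.01 for H4. Hist1h1b differed by −0.52 (adjusted p = 0.139), Hist1h1e by −0.56 (0.167), Hist2h2ac by −0.53 (0.215) and Hist2h2ab by −0.40 (0.318). Hist1h4b, under the low-signal limit, had the largest difference in size, −0.72 (adjusted p = 0.261), and among the H2B genes it was that of Hist1h2bm, −0.47 (0.601). The arrays of 8 histone genes did not overlap and were lower in CD127+ LMPPs, against 9.27% of all genes. With trend and robust settings, or with dim genes left out, Hist1h1b passed (adjusted p = 0.00564 and 0.0472).

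Against CD127+ LMPPs alone, 5 of 30 histone genes were lower in CLPs and 0 higher, where 3.94% of all genes were lower and 2.23% higher; before adjustment 9 lower and 1 higher gene had a p under 0.05, against 11.8% and 9.35% of all genes. Hist1h4h fell by 1.28 log2 (limma adjusted p = 0.00299), Hist1h4m by 1.04 (0.00342), Hist2h2ab by 0.69 (0.0162), Hist1h1b by 0.65 (0.0189) and Hist1h1d by 0.66 (0.026). The median difference was −0.17. The arrays of 9 genes lay lower in CLPs with no overlap, against 10.3% of all genes. The count of calls was 2 without CD127+ LMPP array 1 and 3 without CD127+ LMPP array 2, CD127+ LMPP array 3, Ly6D+ CLP array 1 or Ly6D+ CLP array 2. The calls of Hist1h1b, Hist1h1d and Hist2h2ab were those lost, with adjusted p up to 0.0792, 0.109 and 0.0711, and Hist1h1d was also lost without Ly6D- CLP array 1.

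Against CD127- LMPPs, 7 of 30 were lower in CLPs and 0 higher, where 8.36% of all genes were lower and 5.08% higher; 13 lower and 1 higher gene had an unadjusted p under 0.05, against 15.3% and 11.6% of all genes. The 7 were Hist1h4m (−1.27, limma adjusted p = 0.00033), Hist1h4h (−1.27, 0.000916), Hist1h1b (−1.17, 0.000304), Hist2h2ab (−1.08, 0.000582), Hist1h1d (−1.08, 0.000843), Hist1h1e (−0.99, 0.00175) and Hist2h2ac (−0.97, 0.00226). The median difference was −0.37 (H1 −0.81, H2A −0.12, H2B −0.18, H4 −0.45), and 25 of 30 genes were below 0. The arrays of 12 genes lay lower in CLPs with no overlap, against 13.5% of all genes. Both comparisons use the same 4 CLP arrays. Group means fell from CD127- LMPPs to CD127+ LMPPs and again to CLPs for 14 of the 30 genes, 5 of 6 in H1, 4 of 8 in H2A, 2 of 8 in H2B and 3 of 8 in H4, where 22.3% of all genes followed that order. This order carries no test.

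**Figure D4:**
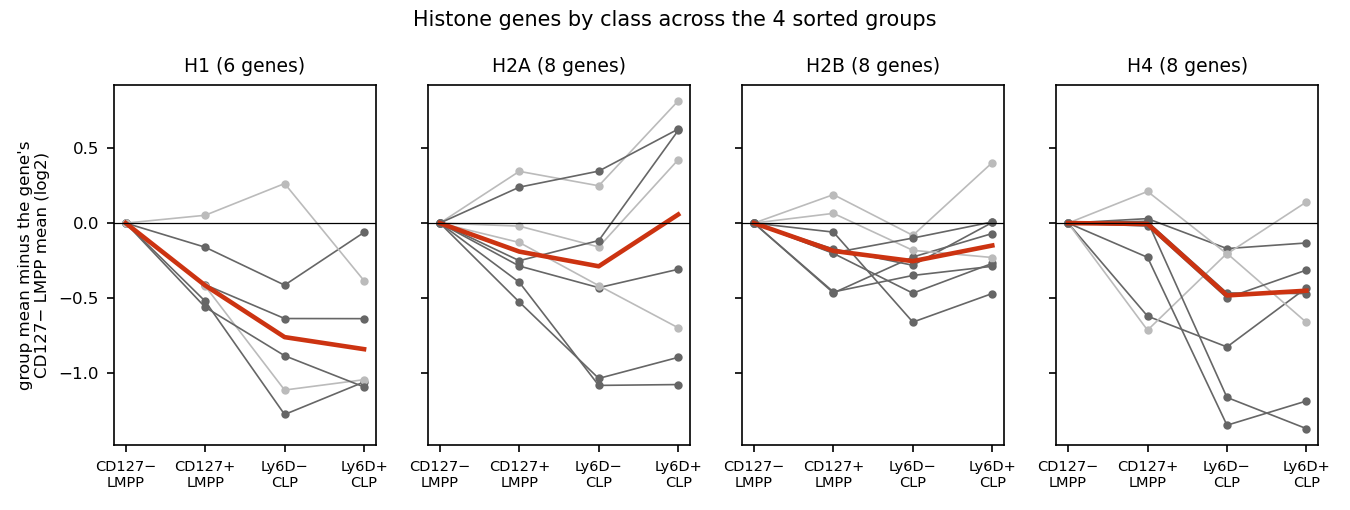
Group mean of each histone gene minus its CD127- LMPP mean, in log2, across the 4 sorted groups and split by class; dark lines are genes above the low-signal limit, pale lines are genes below it, and the red line is the class median. In H1 the median is lower in CD127+ LMPPs (−0.42) and lower again in both CLP groups, in H4 it is near 0 in CD127+ LMPPs (−0.01), and in H2A some genes end above 0 in Ly6D+ CLPs.

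Between the CLP groups, limma called 0 of 30 histone genes in either direction, where 0.0605% of all genes were lower in Ly6D+ CLPs and 0.0389% higher; before adjustment 1 lower and 1 higher gene had a p under 0.05, against 4.44% and 4.66% of all genes. The median difference was 0.15, against −0.003 over all genes, and 8 of 30 genes were below 0. That median was 0.0040 without Ly6D- CLP array 1. Hist1h2ak had the largest difference, 0.74 (SE 0.19, limma adjusted p = 0.247), with a 95% interval from 0.32 to 1.15. It passed with trend and robust settings (adjusted p = 0.0291). Hist1h1t, under the low-signal limit, differed by −0.65 (adjusted p = 0.491).

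Of 16 genes for histone gene transcription and 3′ end processing, 15 did not pass in CLPs against LMPPs, and Lsm10, a subunit of the U7 particle that cuts histone pre-messenger RNA, was lower. Lsm10 read 7.20, 7.37 and 7.10 in CD127- LMPPs, 7.10, 7.19 and 7.10 in CD127+ LMPPs, 6.21 and 6.48 in Ly6D- CLPs, and 6.44 and 5.95 in Ly6D+ CLPs. All CLP arrays lay below all LMPP arrays, a fall of 0.91 log2 (SE 0.12, 1.87-fold, limma adjusted p = 0.00096). The median of the list was −0.07, and 8.72% of all genes were lower and 5.39% higher. Slbp, which encodes the stem-loop binding protein, differed by −0.16 (adjusted p = 0.484), and Npat, the coactivator of histone genes, by 0.20 (adjusted p = 0.22). Between the LMPP groups 0 of the 16 passed, with Ccne2 the largest difference (−0.27, adjusted p = 0.459), and between the CLP groups 0 passed, with Hinfp the largest (0.47, adjusted p = 0.601).

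Of 11 measured replacement histone genes, 3 were lower in CLPs than in LMPPs and 8 did not pass, with a list median of 0.01. Over all genes 8.72% were lower and 5.39% higher. H2afx, which encodes the H2A.X variant that is phosphorylated at DNA breaks, averaged 9.25 ± 0.16 (SD, n = 3), 8.75 ± 0.07 (n = 3), 7.91 ± 0.55 (n = 2) and 7.97 ± 0.11 (n = 2). It fell by 1.06 log2 (SE 0.15, 2.08-fold, limma adjusted p = 0.00113), with no overlap between the 6 LMPP and the 4 CLP arrays. H2afj fell by 1.21 (adjusted p = 0.00105) and H2afv, an H2A.Z gene, by 0.50 (adjusted p = 0.00784). H2afz, the other H2A.Z gene, differed by −0.13 (adjusted p = 0.578). The same 3 genes were lower against each LMPP group alone, and 0 of the 11 passed between the LMPP groups or between the CLP groups.

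Histone chaperones, which carry histones to DNA, moved both ways. Of 17 measured, 2 were lower in CLPs than in LMPPs, Asf1b (−0.52, limma adjusted p = 0.0257) and the importin gene Ipo4 (−0.53, 0.0123), and 2 were higher, Anp32e (0.56, 0.00943) and Atrx (0.42, 0.0137). All 17 had a mean above the low-signal limit, and 15.5% of all genes above it were lower and 7.99% higher. Asf1b averaged 6.55 ± 0.22 (SD, n = 3), 6.07 ± 0.23 (n = 3), 5.63 ± 0.04 (n = 2) and 5.95 ± 0.21 (n = 2). Against CD127+ LMPPs alone Nasp, a chaperone of H3, H4 and H1, was higher in CLPs (0.46, adjusted p = 0.0425), and Asf1b did not pass (−0.28, adjusted p = 0.358). The list medians were −0.003 against all LMPPs and −0.17 between the LMPP groups, where 0 of 17 passed.

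Because clustered histone genes are made in S phase, cell cycle genes are given beside them. Of 28 DNA replication genes, 4 were lower and 0 higher in CLPs than in LMPPs, with a median of −0.10. All 28 had a mean above the low-signal limit, and 15.5% of all genes above it were lower and 7.99% higher. Against CD127- LMPPs 5 were lower, with a median of −0.21, and against CD127+ LMPPs 0 passed, with a median of 0.05, while 5 histone genes were lower there. Of all genes above the limit, 14.9% were lower against CD127- LMPPs and 6.99% against CD127+ LMPPs. Between the LMPP groups all 28 were below 0 in CD127+ LMPPs, with a median of −0.20, and 0 passed. Rrm2, a subunit of ribonucleotide reductase, was the largest (−0.62, limma adjusted p = 0.0561). Between the CLP groups the median was 0.02 and 0 passed. The summed linear signal of the 28 genes ran from 7835 to 8453 in CD127- LMPPs, 6982 to 7560 in CD127+ LMPPs, 7147 to 7191 in Ly6D- CLPs and 7416 to 7523 in Ly6D+ CLPs.

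Of 19 mitotic genes, 5 were lower in CLPs than in LMPPs (Ccnb2, Cdc20, Cdk1, Kif20a and Plk1), with a median of −0.04. All 19 had a mean above the low-signal limit. Of all genes above it, 15.5% were lower in CLPs than in LMPPs, and 6.99% lower than in CD127+ LMPPs. Against CD127+ LMPPs 1 passed, Cdc20, which activates the anaphase-promoting complex (−0.81, limma adjusted p = 0.00949), and 0 passed within LMPPs or within CLPs. Their summed signal ran from 5301 to 5533, 4971 to 5910, 5028 to 5161 and 5190 to 5424 in the 4 groups, so these ranges overlapped between LMPPs and CLPs. The part of cell cycle genes in the histone differences was not tested.

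**Figure D5:**
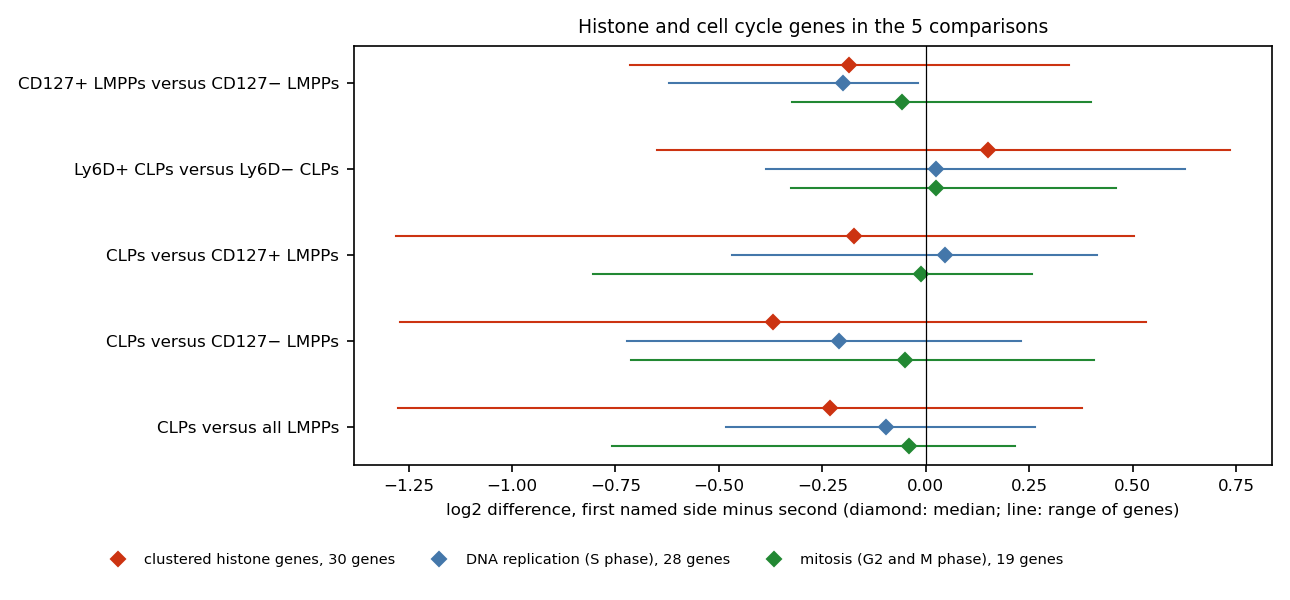
Median (diamond) and range over genes (line) of the log2 difference in each of the 5 comparisons, for the 30 clustered histone genes, 28 DNA replication genes and 19 mitotic genes. In CLPs against CD127+ LMPPs the histone median lies at −0.17 and the replication median at 0.05, whereas between the LMPP groups they lie at −0.19 and −0.20.

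Granulocyte and erythroid genes differed between groups too. The summed signal of 11 mature granulocyte genes ran from 377 to 1131 in CD127- LMPPs, 2752 to 4100 in CD127+ LMPPs, 522 to 624 in Ly6D- CLPs and 448 to 749 in Ly6D+ CLPs. Of these genes, 6 were higher in CD127+ than in CD127- LMPPs, while 3 lay below 0 there with 0 called lower. In CLPs 7 of them had less transcript than in CD127+ LMPPs. Over all genes 0.881% were higher in CD127+ than in CD127- LMPPs, and 3.94% were lower in CLPs than in CD127+ LMPPs. The 9 measured erythroid genes summed to 359 to 402, 682 to 1145, 308 to 311 and 223 to 249 in the same order, with 3 higher in CD127+ than in CD127- LMPPs and 4 that CLPs had less of than CD127+ LMPPs. Both sums were highest in CD127+ LMPPs, where 21 of 30 histone genes stood below their CD127- LMPP mean. Their part in the histone differences was not tested.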

How the data were processed

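The deposited table holds 1 value for each of 269751 probe sets on 10 arrays, made by the authors with Affymetrix Power Tools, per the submitters' processing notes. The authors' values were read as log2 signal from their range (0.204 to 14.8); for the log base, summary method, normalization and genome build, what was done was not given in the sources used here. No further normalization was applied. The 233753 probe sets annotated to 1 symbol gave the 23152 gene means; those with several symbols (5106) or none (30892) stayed out of the gene tests.

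Group means were fitted with limma 3.58.1 in R 4.3.3 over all 10 arrays, with Benjamini-Hochberg adjustment over all genes at 0.05. CLPs are the equal mean of their groups. The steps were tested on simulated data. There, planted differences of 0.5 log2 were called in 14.7% of cases between the LMPP groups and 4.33% between the CLP groups. Planted differences of 1 log2 were called in 89.5% and 64.2%. The number of arrays limits the precision. Members, gene lists and the naming rule were chosen with earlier results of these data known. The rule names, per class and comparison, up to 4 members past the threshold in each direction or else the largest difference, the 3 members per class with the highest mean, the 10 smallest F test p-values and the testis histones, and likewise up to 4 genes per list. The probe-set fit was chosen after seeing the data.

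The fit was repeated with each array left out, with a replicate block, with array weights, with trend and robust settings, with dim genes filtered out, at a 2-fold threshold, with the median or brightest probe set of a gene, and after median centring or quantile normalization. Promoters came from RefSeq (GRCm38.p6), with Hist1h2al, Hist2h2be and Hist2h4 having none in the table. Figures were made in matplotlib 3.10.9 (Python 3.11.15, numpy 2.4.6, pandas 2.3.3).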

Additional observations from a re-analysis of the deposited data

How the results depend on the processing

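Of 21 calls of single histone genes over the comparisons, 16 held whichever array was left out, and 6 held under all settings. The count lower in CLPs than in CD127+ LMPPs, 5, was 2 with the brightest probe set, 2 at a 2-fold threshold and 2 to 6 with an array left out. The count lower in CLPs than in all LMPPs, 9, was 2 at a 2-fold threshold. The count lower in CD127+ than in CD127- LMPPs, 0, was 1 with dim genes left out and 1 with trend and robust settings. Counts higher were 0, and became 1 in CLPs against CD127+ LMPPs with dim genes left out, with trend and robust settings or with the block, and 0 to 1 with an array left out. Against CD127- LMPPs the count higher was 1 with dim genes left out, with trend and robust settings or with array weights, and 0 to 1 with an array left out (Hist3h2a, without CD127- LMPP array 2). Against all LMPPs it was 2 with dim genes left out or with trend and robust settings (Hist1h2ak and Hist3h2a), 1 with the block, and 0 to 1 with an array left out. Between the CLP groups it was 1 with trend and robust settings, and the median difference ran from 0.0040 to 0.26 with an array left out. There the uncalled differences of Hist1h1t (0.042 with the median probe set), Hist1h4b (0.16 with the brightest) and Hist1h2ba (−0.21 to 1.18 with an array left out, the lowest without Ly6D+ CLP array 2) changed sign. The cause was not tested.

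The labels do not say what the array numbers stand for, and groups of 2 or 3 arrays are too few to decide whether same-numbered arrays were paired. Deviations from the group means of same-numbered LMPP arrays correlated at 0.02, −0.01 and 0.04, and those of the CLP pairs at 0.03. Between LMPPs and CLPs, CD127- LMPP array 2 and Ly6D- CLP array 2 correlated at 0.13. The differently numbered CD127- LMPP array 3 and Ly6D- CLP array 1 correlated at 0.14. Not every array correlated best with its own number. With the replicate block 5, 8 and 8 histone genes were lower in CLPs than in CD127+, CD127- and all LMPPs, and 1, 0 and 1 higher, the riser being Hist1h2ak. Hist1h1c was lower with the block against CD127- LMPPs (−0.80, adjusted p = 0.0173) and all LMPPs (−0.60, 0.0316), and against CD127- LMPPs also with dim genes left out (adjusted p = 0.0436). Signal near the low-signal limit bounds the folds of Hist1h1d and Hist1h4h, and 9 of 30 genes lay below it on average.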
